A study of Mus musculus with 11 samples.

Results

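The mouse Cd209 lectin family comprises Cd209a, Cd209b, Cd209c, Cd209d, Cd209e, Cd209f and Cd209g, 7 genes in 1 cluster on chromosome 8. The genes were taken by name, and each was read from the probeset that names it alone, with the highest mean over all arrays where there was more than 1. Of the 22180 genes tested, 6 were members with a probeset of their own. Cd209f had none: 1 probeset names Cd209f and Cd209g together. In all, 9 probesets name a member. The family was selected on its log2 levels in lymphoma-exposed against naive cells, which were already known, so those levels are given as a description, and the calls that the fit over all genes made among the members are printed beside its overall rate and support nothing.

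CD209 proteins are C-type lectins, membrane receptors that bind sugars in the presence of calcium, in this family chiefly mannose- and fucose-rich glycans on microbes and on host glycoproteins. Human CD209 is DC-SIGN, a dendritic cell receptor for pathogens and for intercellular adhesion molecules, and the mouse carries several homologues in its place. Among these, Cd209a is known as a marker of type 2 conventional dendritic cells and of dendritic cells that arise from monocytes. Cd209b encodes SIGN-R1, the receptor by which marginal zone macrophages of the spleen take up dextran and pneumococcal polysaccharide.

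The study sorted CD11c-positive, MHC class II-positive dendritic cells from spleens of C57BL/6 mice and profiled them on a 1-colour Affymetrix gene array. The 5 exposed samples came from mice given transferred Eµ-Myc lymphoma cells, a B cell lymphoma driven by a Myc transgene, and the 6 naive samples from naive C57BL/6 mice. The comparison asks how transcription differs once the spleen holds lymphoma. Per the labels, tumour load in the exposed spleens averaged 10 to 36% of lymphocytes and sort purity was above 95%. The labels give no age or sex, no interval after transfer, and no sign of whether each array is 1 mouse, so spread between arrays may be partly technical, and the number of arrays limits the precision. Levels are RMA log2 values. Array medians lay between 5.53 and 5.61.

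The sequences just before the annotated starts of 4 members show how the family's promoters differ. Cd209a and Cd209b are shown because their levels differed most between the groups, and Cd209f and Cd209g because the array does not separate them fully. Each line holds the 100 bases before the start in RefSeq (GRCm38.p6), read 5′ to 3′ on the gene's strand, at chr8:3748985-3749084 (minus strand), chr8:3926842-3926941 (minus), chr8:4105765-4105864 (minus) and chr8:4134636-4134735 (plus), in the order of the lines. Capitals mark matches to the motifs named in the next paragraph.
Cd209a: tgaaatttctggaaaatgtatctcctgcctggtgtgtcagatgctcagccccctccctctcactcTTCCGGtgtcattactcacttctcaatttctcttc
Cd209b: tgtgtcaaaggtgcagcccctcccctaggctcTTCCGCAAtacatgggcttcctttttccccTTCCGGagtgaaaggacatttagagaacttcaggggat
Cd209f: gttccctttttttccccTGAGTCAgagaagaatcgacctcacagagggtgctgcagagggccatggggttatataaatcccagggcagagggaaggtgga
Cd209g: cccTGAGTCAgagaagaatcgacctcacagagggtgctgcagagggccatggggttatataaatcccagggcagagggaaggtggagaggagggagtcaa

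The 250 bases before the start of each member were searched on both strands for 6 short motifs, chosen with the sequences in view. The ETS-type motif CCGGAA was found in 5 of the 7 members, in all but Cd209c and Cd209d, and in 12.0% of all 32851 promoters in the table. In Cd209a its start lay 35 bases before the gene's start, and in Cd209b 38 bases. The C/EBP motif TTGCNNAA, of the family of the transcription factor that the study is about, matched 1 member, Cd209b, at 68 bases (9.56% of all promoters). The AP-1 motif TGANTCA matched Cd209f and Cd209g (6.75% of all promoters). The PU.1 motif GAGGAA matched Cd209d (23.3%). Cd209a, Cd209c and Cd209e held a match to the TATA-like motif ATAAAAG (4.83%). It started 186 bases before the start in Cd209a, 218 in Cd209c and 32 in Cd209e, and in Cd209a and Cd209c it lay on the opposite strand. The printed lines of Cd209f and Cd209g hold the letters tatataaa, which ATAAAAG does not match. The interferon response motif, GAAA repeated after a gap of any 2 bases, matched 0 of the 7 members (2.98%). None of these matches overlapped another. A match describes the letters and shows no binding. Cd209f and Cd209g were 77.7% identical over these 250 bases in an end-to-end alignment that counts gaps as differences, against 45.5% for Cd209a and Cd209b. The Cd209f line, from its AP-1 match to its end, recurs unchanged in the Cd209g line. That match started 83 bases before the start in Cd209f and 97 in Cd209g, so the AP-1 matches lie in 1 shared sequence. The ETS matches of these genes, at 126 and 140 bases, lay equally far upstream of their AP-1 matches. The count of 5 members with an ETS match may thus hold 1 shared sequence more than once. The 70 pairs of a member with a neighbouring gene outside the family lay between 39.1% and 48.6%.

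Cd209a was lower in exposed than in naive dendritic cells on every array. Its main probeset (17507161) read 10.37, 10.53, 9.76, 9.97 and 10.50 in exposed arrays 1, 2, 3, 4 and 6, against 11.35, 11.31, 11.08, 11.19, 11.13 and 11.43 in naive arrays 1 to 6. The groups did not overlap, and exposed arrays 3 and 4 were the lowest. Means were 10.23 ± 0.35 (SD, n = 5) in exposed and 11.25 ± 0.14 (SD, n = 6) in naive cells, a difference of -1.02 ± 0.13 (SE) on the log2 scale, which is 2.03-fold. The spread among exposed arrays was wider than that among naive arrays. The transcript stayed well above the dim mark of 5.60, the 95th percentile of 1105 olfactory receptor genes, on all 11 arrays. In sorted bulk cells, fewer cells that carry a transcript and less of it per cell cannot be told apart.

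The other Cd209a probeset (17507171) differed less. It read 9.04, 8.48, 9.74, 9.14 and 9.43 in exposed arrays 1, 2, 3, 4 and 6, against 9.61, 9.45, 10.17, 9.53, 9.40 and 9.48 in naive arrays 1 to 6. Here the groups overlapped, with 3 exposed arrays below all naive arrays. The array numbered 3 was the highest of its group on both sides, whereas on the main probeset exposed array 3 was the lowest. The mean difference was -0.44 on the log2 scale. The probe table does not say which part of the transcript either probeset covers. Without probe sequences it was not tested how far a probeset of one member also reads its relatives, and this holds for every member.

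Cd209b (probeset 17507194) was also lower in exposed cells. It read 6.37, 5.84, 6.24, 6.44 and 6.87 in exposed arrays 1, 2, 3, 4 and 6, against 7.08, 7.26, 6.87, 7.16, 7.27 and 7.37 in naive arrays 1 to 6. The groups met at 1 value: exposed array 6, the highest of its group, equalled naive array 3, the lowest of its own, and the other 4 exposed arrays lay below all naive arrays. Means were 6.35 ± 0.37 (SD, n = 5) in exposed and 7.17 ± 0.18 (SD, n = 6) in naive cells, a difference of -0.82 ± 0.15 (SE), or 1.76-fold. Exposed array 2 was the lowest for Cd209b and the highest for Cd209a on its main probeset, so the exposed arrays did not fall in 1 order for both genes.

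Cd209e (SIGNR4, probeset 17507175) was dim, under the mark on all 11 arrays. It read 4.87, 4.58, 4.91, 4.91 and 5.03 in exposed arrays 1, 2, 3, 4 and 6, against 5.03, 5.18, 5.03, 5.52, 5.31 and 5.15 in naive arrays 1 to 6. Of the exposed arrays, 4 lay below all naive arrays and array 6 equalled naive array 1. The difference was -0.34 ± 0.10 (SE). At this level the array does not show whether the transcript was present.

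Cd209d encodes SIGNR3, a receptor known in the mouse for binding mycobacteria. Its probeset (17507184) lay close to the dim mark, from 5.35 to 5.93 with a median of 5.53 in exposed arrays, against 5.38 to 6.21 with a median of 5.74 in naive arrays. The groups overlapped over nearly their whole range, and the difference was -0.13 ± 0.14 (SE). The mark was passed on 2 of 5 exposed and 5 of 6 naive arrays.

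Cd209c (SIGNR2) was read by 2 probesets that pointed in opposite directions. Probeset 17507218, used here by its higher mean, ran from 5.80 to 6.30 (median 5.97) in exposed arrays and from 5.71 to 6.05 (median 5.97) in naive arrays, a difference of 0.10 ± 0.10 (SE). Probeset 17507209 ran from 5.31 to 5.65 (median 5.51) in exposed arrays and from 5.45 to 6.16 (median 5.90) in naive arrays, a mean difference of -0.34. The groups overlapped on both, so no direction is given for Cd209c.

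Cd209g (SIGNR7, probeset 17498750) was dim on all 11 arrays, at 4.30 to 4.71 (median 4.60) in exposed and 4.44 to 5.11 (median 4.65) in naive arrays, and differed by -0.16 ± 0.12 (SE). The probeset shared by Cd209f and Cd209g (17507221) was also under the mark on all of them, at 3.09 to 3.31 (median 3.18) in exposed and 3.22 to 3.88 (median 3.46) in naive arrays. Its mean difference was -0.32, with 4 of 5 exposed arrays below all naive arrays. Both lay under the dim mark, so a level for Cd209f or Cd209g was not detectable here.

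**Figure D1:**
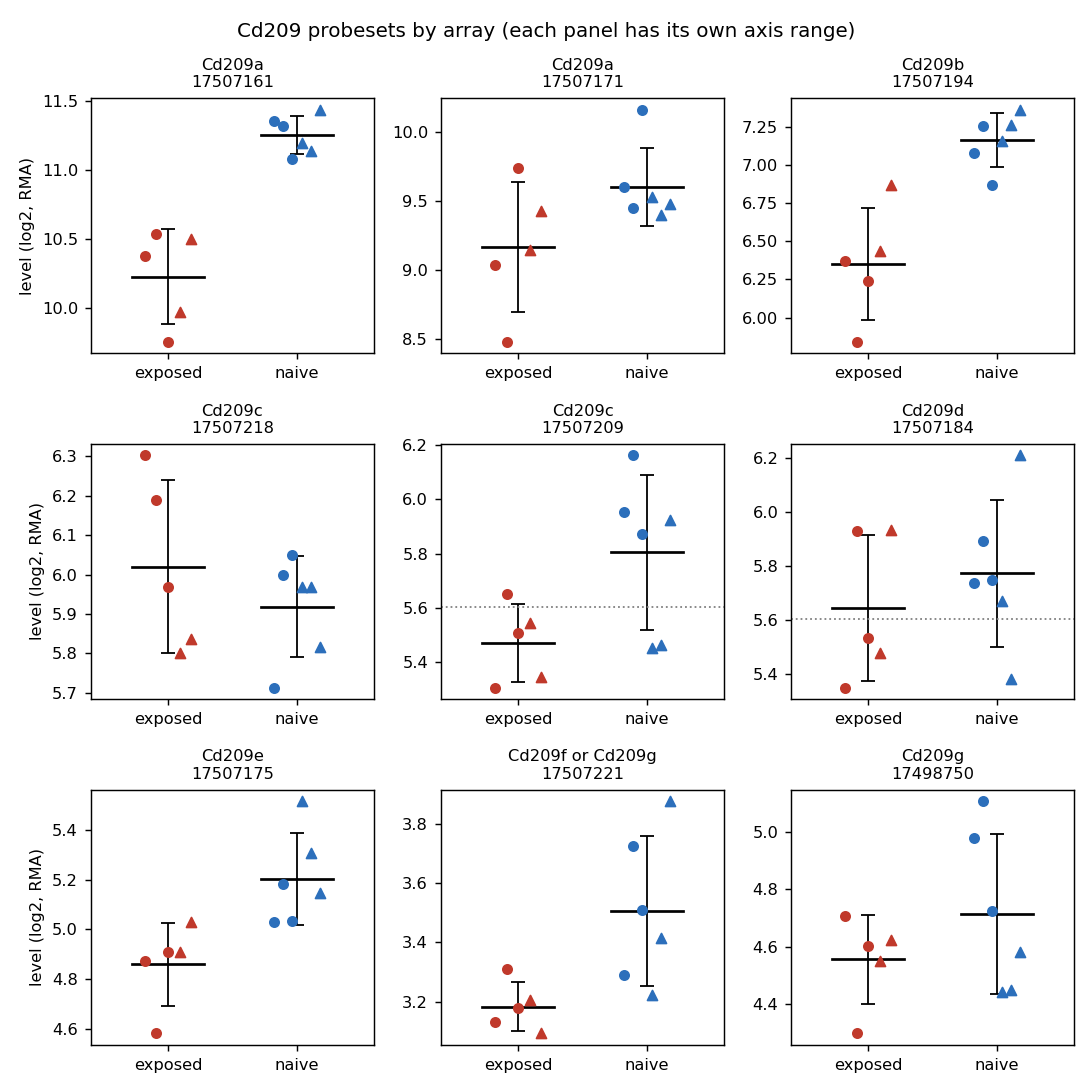
Level (log2, RMA) of the 9 probesets that name a Cd209 gene, exposed arrays left and naive arrays right. Points are arrays (circles numbered 1 to 3, triangles 4 to 6), the line and bar are the mean and SD, and the dotted line is the dim mark of 5.60 where the axis reaches it. Groups stand apart on the main Cd209a probeset alone and meet at 1 value for Cd209b and Cd209e.

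The limma fit over all genes called 2 of the 6 measured members at an adjusted p under 0.05, Cd209a and Cd209b, both lower in exposed cells. It called 1.42% of all genes, 0.546% as lower and 0.879% as higher in exposed cells. The groups did not overlap for 1 of the 6 members, Cd209a, which was lower, and for 2.29% of all genes, 0.875% lower and 1.42% higher. The difference was negative for 5 of the 6 members, as for 46.5% of all genes. The median difference was -0.25 over the members and 0.01 over all genes. Neither Cd209a nor Cd209b was called in arrays 1 to 3 alone or arrays 4 to 6 alone, nor Cd209a on its other probeset. Since the family was picked with this contrast in view, nothing is read from these counts.

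Arrays numbered 1 to 3 in the titles differed from those numbered 4 to 6 at many genes. The choice of members did not use that split, which holds 3 exposed and 3 naive arrays on 1 side and 2 exposed and 3 naive arrays on the other. With group in the model, limma called 3.3% of all genes between the number sets and 0 of the 6 members. An unadjusted p under 0.05 was found for 4316 genes and 2 members. Those members were Cd209b, higher in arrays 4 to 6 by 0.33 ± 0.12 (SE; adjusted p = 0.144), and Cd209e, by 0.21 ± 0.08 (adjusted p = 0.176). Cd209a differed between the sets by 0.01 ± 0.13 (adjusted p = 0.974).

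On its main probeset, the difference in Cd209a had nearly the same size in both number sets, but the other probeset gave -0.65 for arrays 1 to 3, against -0.18 for arrays 4 to 6. The main probeset's mean in arrays 1 to 3 was 10.22 in exposed and 11.25 in naive cells, a difference of -1.03, and in arrays 4 to 6 it was 10.24 in exposed and 11.25 in naive cells, a difference of -1.02. Cd209b averaged 6.15 in exposed and 7.07 in naive cells within arrays 1 to 3, and 6.65 in exposed and 7.26 in naive cells within arrays 4 to 6, differences of -0.92 and -0.61. The limma term for a difference between the sets in the exposed minus naive contrast was 0.01 ± 0.28 (SE) for Cd209a (adjusted p = 0.999) and 0.31 ± 0.23 for Cd209b (adjusted p = 0.992). It was called for 0% of all genes and 0 of the 6 members. An unadjusted p under 0.05 was found for 943 genes and 1 member, Cd209g, with -0.40 in arrays 1 to 3, 0.10 in arrays 4 to 6 and an adjusted p of 0.992.

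**Figure D2:**
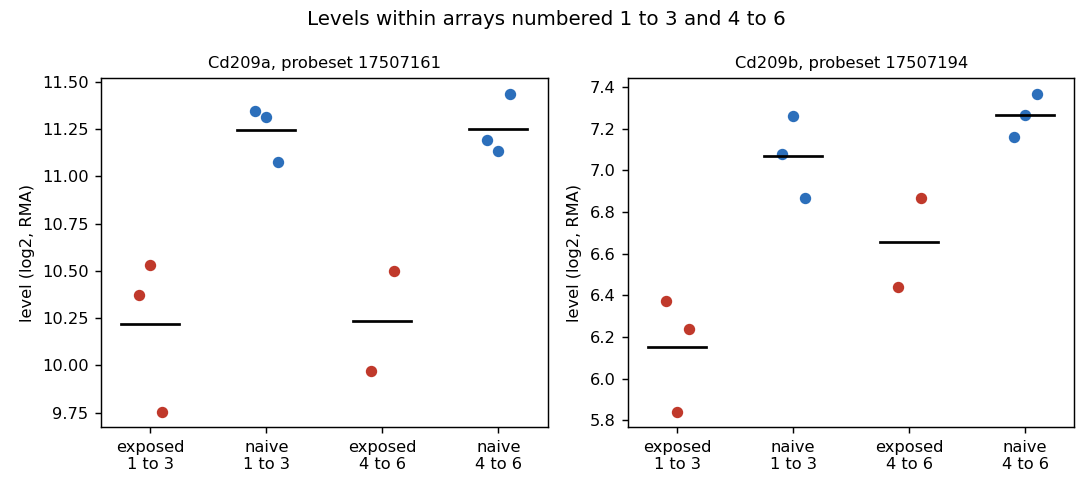
Level (log2, RMA) of Cd209a (main probeset) and Cd209b within arrays numbered 1 to 3 and 4 to 6, exposed in red left of naive in blue, with the mean of each as a line. For Cd209a the exposed means were 10.22 and 10.24 in the 2 number sets. For Cd209b they were 6.15 and 6.65.

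Genes beside the cluster were read next, the 5 protein-coding genes on each side in RefSeq. Of these 10 genes, 8 had a probeset naming them alone, and Map2k7 and Tgfbr3l were not analysed here. Clec4g, which encodes the liver and lymph node sinusoidal lectin LSECtin and lies next to Cd209a, was the 1 gene called. It read 5.68, 5.70, 5.59, 5.43 and 6.04 in exposed arrays 1, 2, 3, 4 and 6, against 6.25, 6.21, 6.40, 6.36, 6.09 and 6.42 in naive arrays 1 to 6. The groups did not overlap. Exposed array 4 lay under the dim mark of 5.60, as did exposed array 3 by a small margin. The difference was -0.60 ± 0.10 (SE; limma adjusted p = 0.0118), or 1.52-fold, with -0.63 in arrays 1 to 3 and -0.56 in arrays 4 to 6.

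The other measured neighbours did not pass the test. Fcer2a, the low-affinity IgE receptor and itself a C-type lectin, differed by 0.01 ± 0.09 (SE; limma adjusted p = 0.989). Trappc5, a subunit of a vesicle tethering complex, differed by -0.30 ± 0.07 (limma adjusted p = 0.0573), with no overlap between the groups. Fcor differed by -0.21 (limma adjusted p = 0.278) and Mcemp1, a mast cell membrane protein, by 0.16 (limma adjusted p = 0.308). Past the far end of the cluster, Evi5l, Prr36 and Lrrc8e, a subunit of volume-regulated anion channels, lay between -0.06 and -0.02. The median difference of the 8 neighbours was -0.05. Without exposed array 6, 2 neighbours were called. Clec4g did not pass with the replicate number of the labels' characteristic as a block (limma adjusted p = 0.0631) or in either number set alone.

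**Figure D3:**
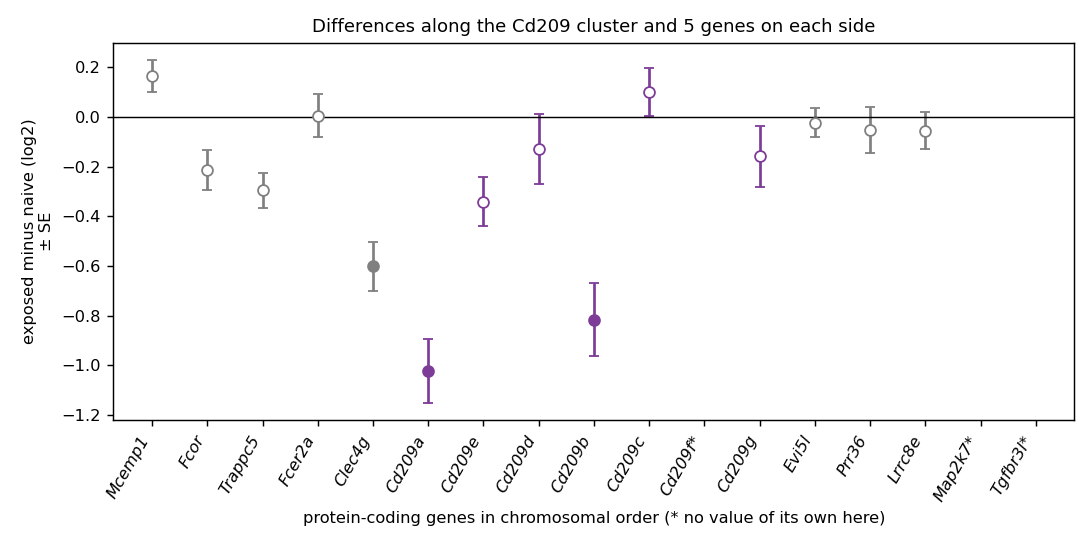
Exposed minus naive difference (log2, with SE) for the protein-coding genes of the cluster (purple) and 5 on each side (grey), in chromosomal order and not to scale. Filled points were called by limma over all genes, which for Cd209 members supports nothing. Clec4g, Cd209a (main probeset) and Cd209b lie lowest, at -0.60, -1.02 and -0.82. Cd209e and Cd209d, which stand between Cd209a and Cd209b, lie at -0.34 and -0.13.

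Other C-type lectin receptors were set beside the family from a list of 44 genes, of which 43 were measured and Clec9a was not analysed here. Limma called 6 of the 43, against 1.42% of all genes, with 2 higher and 4 lower in exposed cells, and 37 did not pass. The list's median difference was 0.10, against 0.01 over all genes. Clec4e, the glycolipid receptor Mincle, rose by 1.95 ± 0.32 (SE; limma adjusted p = 0.0138), and the inhibitory receptor gene Klrb1b by 0.54 ± 0.12 (limma adjusted p = 0.0400). For both, the groups did not overlap.

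The 4 lectins that fell were Clec4g and 3 others. Clec7a, the beta-glucan receptor Dectin-1, fell by 0.53 ± 0.11 (SE; limma adjusted p = 0.0374), with 4 of 5 exposed arrays below all naive arrays. Klrd1, the CD94 chain of natural killer receptors, fell by 0.52 ± 0.12 (limma adjusted p = 0.0452). Clec4a4, the inhibitory lectin DCIR2 of type 2 conventional dendritic cells, fell by 0.43 ± 0.08 (limma adjusted p = 0.0250). The groups did not overlap for Klrd1 and Clec4a4. When each of the 11 arrays was dropped in turn, Clec4e and Clec4g passed every time, whereas Clec4a4 did not pass in 7 cases, Clec7a in 9, Klrb1b in 9 and Klrd1 in 10. The count of 6 fell to 2 without exposed array 2 or naive array 1, 4 or 6, and to 3 without exposed array 4 or naive array 2, 3 or 5. With the characteristic's number as a block, 3 lectins were called higher and 0 lower, so all 4 lectins that fell lost their call there.

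**Figure D4:**
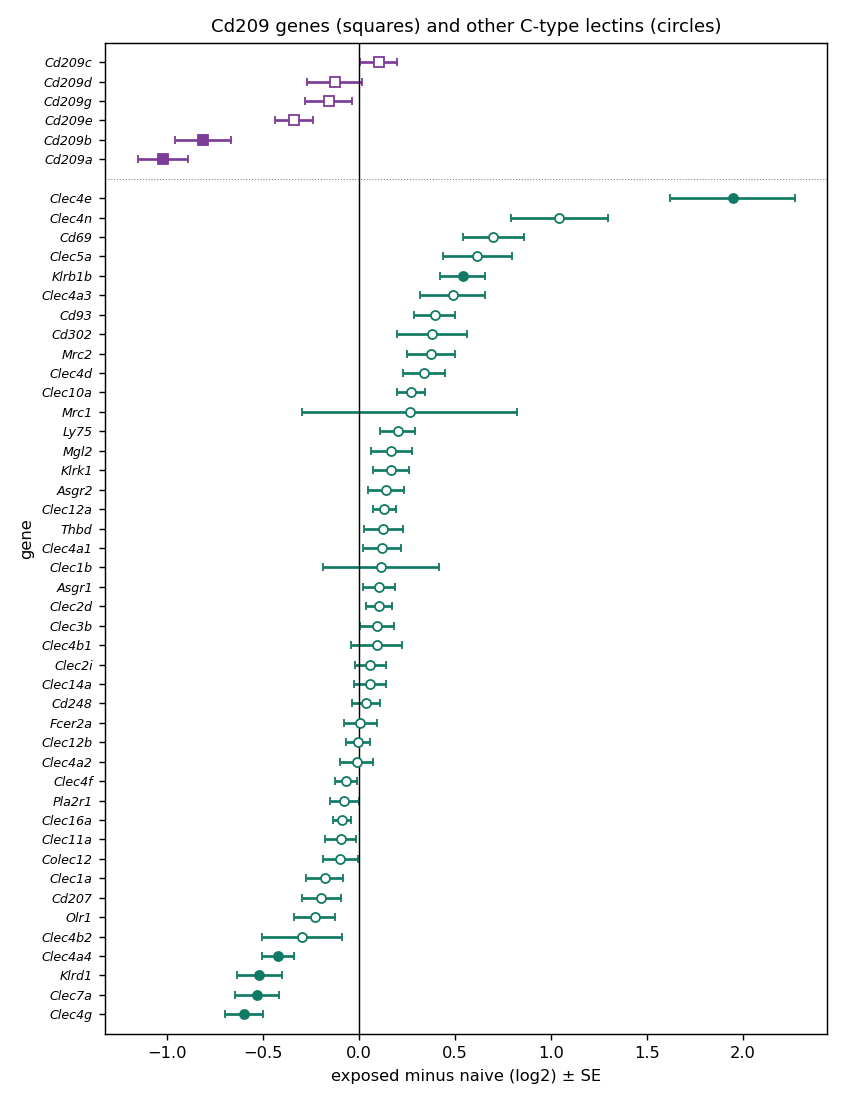
Exposed minus naive difference (log2, with SE) of the 6 measured Cd209 genes (squares) and 43 other C-type lectin receptor genes (circles), each sorted by size. Filled symbols were called by limma over all genes, which for the squares supports nothing. The 43 lectins spread from -0.60 for Clec4g to 1.95 for Clec4e. Cd209a, drawn on its main probeset, and Cd209b lie lower. The family was picked with this contrast in view, so nothing is read from their place. The other Cd209a probeset, not drawn, differed by -0.44.

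Genes that act downstream of C-type lectins did not share 1 direction. Of 20 listed genes 17 were measured (the other 3 were not analysed here), 2 rose, 1 fell and 14 did not pass, with a median difference of 0.04. Ikbke, a kinase of interferon and NF-kB signalling, rose by 0.86 ± 0.10 (SE; limma adjusted p = 0.00305). Relb, an NF-kB subunit, rose by 0.25 ± 0.05 (limma adjusted p = 0.0194). Malt1, the paracaspase that works with Card9 downstream of Dectin-1, fell by 0.35 ± 0.07 (limma adjusted p = 0.0311), but lost its call in 8 of the 11 cases in which 1 array was dropped. Relb lost it in 2 of them. Relb and Malt1 also lost it with either replicate number as a block, and Relb with a common 75th percentile (limma adjusted p = 0.0624).

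Regulators of type 2 dendritic cells and of lectin induction mostly did not pass either. Of 24 listed genes 23 were measured (Zeb2 was not analysed here) and 1 passed, Relb. The list's median difference was -0.07. Cebpb, the gene of C/EBPβ, differed by 0.37 ± 0.16 (SE; limma adjusted p = 0.366). Icam1 and Icam2, whose human proteins include a DC-SIGN ligand, differed by 0.17 (limma adjusted p = 0.582) and -0.11 (limma adjusted p = 0.703).

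The label of splenic dendritic cells was checked against markers. Itgax, the gene of the CD11c used in the sort, stood at 11.98 ± 0.13 (SD, n = 5) in exposed and 12.11 ± 0.08 (SD, n = 6) in naive cells. A list's level is the mean of its measured genes on an array. Type 1 conventional dendritic cell markers ranged from 10.40 to 10.76 in exposed and from 10.44 to 10.72 in naive arrays, with 0 of 11 called. Plasmacytoid cell markers lay at 7.42 to 7.91 in exposed and 7.35 to 7.75 in naive arrays, with 0 of 8 called. B cell markers lay at 6.87 to 7.26 in exposed and 6.89 to 7.22 in naive arrays, with 0 of 7 called. T and NK cell markers lay at 5.07 to 5.36 in exposed and 4.95 to 5.09 in naive arrays, with 1 of 7 called (Ncr1, 0.46) and 5 of 7 under the dim mark, Cd3d, Cd3e and Cd3g among them. Neutrophil markers lay at 4.72 to 5.02 in exposed and 4.69 to 4.81 in naive arrays, with 0 of 7 called and all but Mpo under the mark.

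Type 2 conventional dendritic cell markers other than Cd209a mostly did not pass the test. Their level was 9.17 to 9.40 in exposed and 9.31 to 9.48 in naive arrays, and 1 of 10 was called, Clec4a4. Cd4 and Itgam, also among the 10, differed by -0.48 (limma adjusted p = 0.107) and -0.33 (limma adjusted p = 0.0683). Irf4, Ltb and Esam differed by -0.22, -0.17 and -0.09 and did not pass. Sirpa, Mgl2, Clec12a and Clec10a, the last under the dim mark, had positive differences that did not pass. In all, 6 of the 10 differences were negative and 4 positive. The list's median difference was -0.13. Cd209a, picked with this contrast in view, differed by -1.02 on its main probeset and by -0.44 on its other one. The part of these cells in the result for Cd209a was not tested.

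Most markers of splenic macrophages had higher means in exposed cells, though few passed the test. Of these macrophages, Cd209b is best known from those of the marginal zone, and its own mean was lower. The 5 marginal zone macrophage markers had a level of 7.01 to 8.77 in exposed and 6.41 to 7.14 in naive arrays. All 5 had positive differences and 2 were called: the scavenger receptor Marco rose by 1.54 ± 0.23 (SE; limma adjusted p = 0.00721) and the oxysterol receptor Nr1h3 by 1.09 ± 0.15 (limma adjusted p = 0.00409). Of the 12 red pulp macrophage markers, 11 had positive differences and 0 were called, with levels of 8.96 to 10.80 in exposed and 8.39 to 9.46 in naive arrays. These directions were less uniform in arrays 4 to 6, where 3 of the 5 marginal zone and 8 of the 12 red pulp markers had positive differences, against 5 and 12 in arrays 1 to 3. The red pulp list's median difference was 1.05 within arrays 1 to 3, against 0.14 within arrays 4 to 6. By array, the red pulp level exceeded all naive arrays only on exposed arrays 1 (10.80) and 2 (9.84). On exposed arrays 3, 4 and 6 it was 9.15, 9.03 and 8.96, within the naive range. The marginal zone level lay above all naive arrays except on exposed array 6 (7.01). Monocyte markers lay at 7.67 to 8.13 in exposed and 7.58 to 8.03 in naive arrays, with 1 of 10 called (Lyz2, 0.50), and endothelial markers at 6.57 to 7.24 in exposed and 6.49 to 6.75 in naive arrays, with 1 of 7 called (Kdr, 1.09). Chil3, F13a1 and Vcan among the monocyte markers and Lyve1 and Emcn among the endothelial markers were under the dim mark. With each array dropped in turn, Lyz2 lost its call in 10 of 11 cases, Ncr1 in 8 and Kdr in 3, and all of these lost it with the characteristic's number as a block. The part of these cells in the results for Cd209a and Cd209b was not tested.

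The genes whose levels followed the 2 members most closely over the 11 arrays differed between them. Likeness was the root mean square distance between log2 profiles after each gene's mean was removed, over 11822 named genes above the dim mark. Cd209a was read from its main probeset alone. Its other probeset, which ordered the exposed arrays differently, was not compared. For Cd209a, whose own profile spread by 0.56, the nearest were Slc12a2, a sodium-potassium-chloride carrier (distance 0.24), Abca9, a lipid transporter (0.25), the sciellin gene Scel (0.27), the drug efflux pump Abcb1a (0.28) and Tmem273 (0.28). For Cd209b, whose profile spread by 0.48, they were the adhesion receptor Adgrl3 (0.09), Stra6l (0.18), the inhibitory surface protein Cd101 (0.18), the CD30 ligand Tnfsf8 (0.20) and the coreceptor Cd4 (0.20). All 10 were lower in exposed cells on average, which likeness to a gene with that pattern nearly forces. Cd209a and Cd209b lay 0.33 from each other, which put Cd209b at rank 13 for Cd209a and Cd209a at rank 129 for Cd209b.

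**Figure D5:**
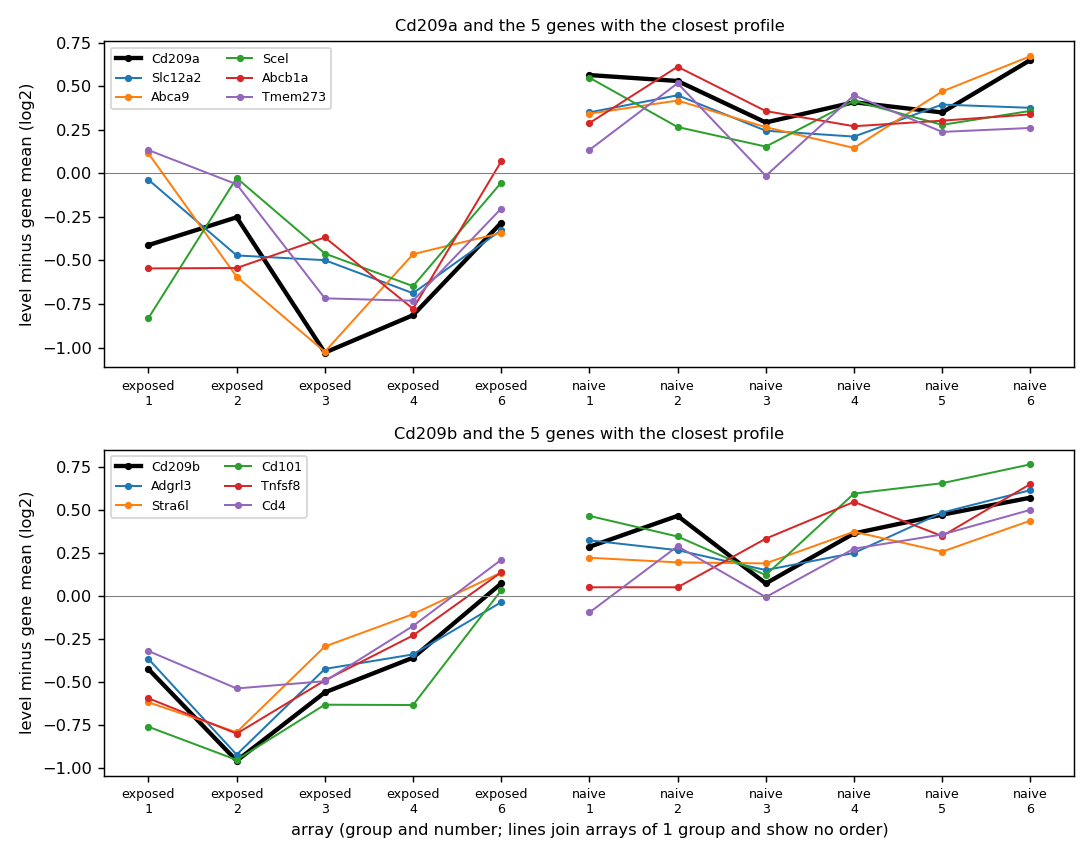
Level minus each gene's mean (log2) on the exposed arrays (left) and naive arrays (right). Cd209a (main probeset, upper panel) and Cd209b (lower panel) are in black and the 5 nearest genes in colour. Lines join arrays of 1 group only to guide the eye. Of the 11822 genes compared, Adgrl3 keeps closest to Cd209b, at a distance of 0.09, while none of them comes nearer to Cd209a than 0.24.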

How the data were processed

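Dendritic cell RNA from 5 exposed and 6 naive samples was hybridised to 1 array each. The deposited values are log2 expression per probeset, made by the authors with RMA per the submitters' processing notes. The genome build and RMA version are not given in the sources used here. Of 41801 probesets, 7329 were blank on every array, and 34472 were used. The platform's probe table names 1 gene for 23521, several for 1814 and none for 9137, and 23328 of the first were matched to RefSeq (GRCm38.p6) by gene ID. For the 1082 genes with several probesets the one with the highest mean was kept, giving 22180 genes, with no filter on dim ones.

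Exposed minus naive differences, their SE and Benjamini-Hochberg adjusted p-values over all genes came from limma 3.58.1 (trend) in R 4.3.3, tested on simulated data. Models with the number set (arrays 1 to 3 or 4 to 6) and its interaction with group were fitted likewise. Promoters were aligned with Biopython 1.88.

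Named genes are all members and probesets, up to 8 called genes a direction of each pathway list and up to 3 of each marker list, Icam1, Icam2, Cebpb, the neighbours, and 5 nearest profiles for Cd209a and Cd209b. Itgax was added as a check of the sort, and markers named without passing the test were chosen after their values were seen. Members, lists and rules were chosen with earlier results of these data known. The last exposed array is 6 in its title and 5 in another field. Other fits, scalings, filters, probeset choices, blocks and left-out arrays were run as alternatives.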

Additional observations from a re-analysis of the deposited data

Results flagged for a closer look

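Among 34 groups of arrays checked for members and neighbours, 2 held an array far from the rest, and chance gives about 1 in 20. The second Cd209a probeset (17507171) had naive array 3 at 10.17, with a gap to the next naive array of 0.73 of the group's range. The neighbour Lrrc8e (probeset 17498786) had naive array 2 at 5.37, with a gap of 0.74 of the range. The main Cd209a probeset showed no such array.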

How the results depend on the processing

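Cd209a and Cd209b stayed lower in exposed cells under every alternative run, though neither was called in arrays 1 to 3 or 4 to 6 alone, nor Cd209a on its other probeset. For Cd209a the difference was -0.73 with the mean of both probesets and -0.44 on its other probeset, and -1.10 to -0.91 with 1 array left out. Cd209b ranged from -0.94 to -0.69 with 1 array left out. Cd209c changed sign, to -0.12 with the mean of its probesets, -0.34 on its other probeset and -0.10 in arrays 4 to 6 alone. Cd209g changed sign too: its difference was -0.40 within arrays 1 to 3 and 0.10 within 4 to 6. The causes were not tested. Left-out arrays gave 0.03 to 0.16 for Cd209c, -0.21 to -0.04 for Cd209d, -0.38 to -0.27 for Cd209e and -0.21 to -0.08 for Cd209g.

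Whether the replicate numbers pair the arrays was not settled. Deviations of same-numbered arrays correlated at 0.088 to 0.231, all positive, and 2 of 5 exposed arrays correlated best with their own number. With the title's number as a replicate block, which uses no information from naive array 5, Cd209a gave -1.05 and Cd209b -0.80, and 341 genes were called. The characteristic's number as a replicate block gave -0.99 and -0.78, with 182 genes, 3 lectins (all higher) and 0 neighbours called. The number set as a block gave 617 genes, against 316 in the fit as reported. Arrays 1 to 3 alone gave 11 and arrays 4 to 6 alone gave 5, with 0 lectins and 0 neighbours in each, where fewer arrays enter. Neighbours called were 2 with quantile normalisation, the common 75th percentile, dim genes left out, the title's block and the number set block. With 1 array left out, 104 (without exposed array 2) to 395 genes, 2 to 7 lectins and 1 to 2 neighbours were called. Outside exposed arrays 1, 4 and 6 and naive array 4, every left-out array took the gene count under 316 by over 1.5 times, to 104 to 205. The common 75th percentile made 43.6% of called genes higher in exposed cells, against 61.7% as deposited. Cd209e and Cd209g gave no value where dim genes were left out. Number set and interaction terms called 0 members under every alternative run.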

Other observations

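Exact ties between arrays were frequent in the deposited values. At 45.2% of the probesets at least 2 arrays shared 1 value, and in 90.8% of those the shared value was the median of the 11 arrays. Exposed array 6 and naive array 3 shared one for Cd209b, and exposed array 6 and naive array 1 for Cd209e. On the Cd209c probeset 17507218, naive arrays 4 and 5 and exposed array 3 shared 5.97. Whether groups count as overlapping for Cd209b and Cd209e rests on these ties. The same holds for the called lectin Clec7a, where the highest exposed and lowest naive value were both 11.47. Groups that met at a tie were counted as overlapping for all genes too. How far this lowered the shares without overlap was not tested.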
